A study of Mus musculus with 55 samples.

Results

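The GATA family of transcription factors was followed through bulk RNA-seq of whole mouse islets and through a chromatin-state map of wild-type islets. Its 6 members, Gata1 to Gata6, are 6 of the 47937 genes counted, and all 6 were taken by name. The family was chosen by its measured RNA levels in these same libraries, where some members had been seen to differ between βEedKO and wild-type islets, so the calls below describe its members and are not independent evidence that the family responds. GATA factors are zinc finger proteins that bind the DNA letters GATA and can open closed chromatin. Gata1, Gata2 and Gata3 direct blood lineages, Gata2 and Gata3 also act in neurons that make inhibitory or monoamine transmitters, and Gata4, Gata5 and Gata6 direct heart and endoderm. Gata4 and Gata6 build the early pancreas, after which Gata4 is known from acinar cells and Gata6 from endocrine cells. Genes that specify other lineages are kept silent by the Polycomb complex PRC2, which methylates lysine 27 of histone H3 (H3K27me3) and of which Eed is a core subunit.

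The 16 libraries were made from whole islets of male C57B6/J mice, hand-picked and kept in culture. Mice of 8 weeks were wild type (WT, n = 3 libraries), heterozygous for Eed (HET, n = 3) or Eed -/- (βEedKO, n = 3), and mice of 25 weeks were WT (n = 3), HET (n = 2) or βEedKO (n = 2). In βEedKO mice, floxed Eed alleles are cut by a Cre under a rat insulin promoter, so that Eed is lost in β cells while other cells of the islet keep it. Whether the controls carried Cre is not stated for these libraries, and the libraries of 25-week βEedKO islets pool the islets of several animals. Both the mature β cell and its neighbours contribute RNA, so fewer cells of a type and less RNA per cell cannot be told apart.

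Depth was 4645393 to 22925359 reads in genes, and the shallowest library was WT replicate 2 at 25 weeks. Levels are counts scaled to library size with TMM factors (CPM), and 3 reads, the floor used here, correspond to 0.121 to 0.654 CPM. Eed itself lay at 14.2 to 15.6 CPM in 25-week βEedKO islets and at 19.2 to 28.3 CPM in WT islets of that age, and at 13.4 to 14.9 against 23.8 to 33.1 CPM at 8 weeks. The 7 islet endocrine genes summed to 42615 to 48145 CPM in the 25-week βEedKO libraries and to 141357 to 262937 CPM in the other 14. A further feature of these libraries was acinar RNA: 11 acinar genes summed to 392196 CPM in 25-week βEedKO replicate 2 and to 12285 CPM in replicate 3, the highest and the lowest of all 16. Each result of the 25-week βEedKO group was therefore also taken without either replicate. A gene was called when its adjusted p was under 0.05 in edgeR's quasi-likelihood test, with Benjamini-Hochberg adjustment over all genes tested.

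The members do not sit in like chromatin. In the segmentation of WT islets, 24 states named A to X cover the 19 autosomes in bins of 200 bp. State M joins the active mark H3K4me3 with high H3K27me3 (bivalent), state L is bivalent with more H3K4me3, N and O are Polycomb-repressed, and A and B flank active start sites. Gata2 (chr6:88193891-88207032, + strand), Gata3 (chr2:9857078-9890034, - strand), Gata4 (chr14:63198922-63271692, - strand) and Gata5 (chr2:180325133-180334699, - strand) carried state M at the annotated start, which 5.62% of 28877 autosomal genes do (GRCm38). Gata6 (chr18:11052064-11085635, + strand) carried state L there, as 10.5% of genes do. Gata1 (chrX:7959260-7978071, - strand) lies outside the autosomes and its state was not analysed here.

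Along the gene bodies the order was the same for Gata2 to Gata5, and Gata6 stood apart. States K to O covered 100.0% of the gene body of Gata2 and of Gata5, 98.9% of Gata4 and 95.8% of Gata3, but 27.2% of Gata6, of which 64.4% lay in the elongation and enhancer states D to J. State M was the leading state of the bodies of Gata2 (87.8%), Gata3 (65.0%) and Gata4 (47.1%), O was that of Gata5 (38.3%), and J, a state of active transcript ends and distal enhancers, that of Gata6 (37.5%). The unbroken run of states K to O that held the start site was 32.8 kb for Gata2, 33.4 kb for Gata3, 17.4 kb for Gata5 and 14.0 kb for Gata4, where the median of all genes starting in state M was 18.2 kb. For Gata6 it was 8.6 kb, beside a median of 7.4 kb for genes starting in state L. All 5 annotated Gencode transcripts of Gata2, all 6 of Gata3 and the 1 of Gata5 started in state M (some transcripts share a start), while of those of Gata4 3 started in M, 2 in L and 1 in N. Of the 6 transcripts of Gata6, 3 started in L, 2 in A and 1 in B. Gata6 was thus the member with active start-site states in WT islets, a description without replicates and without a test.

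**Figure D1:**
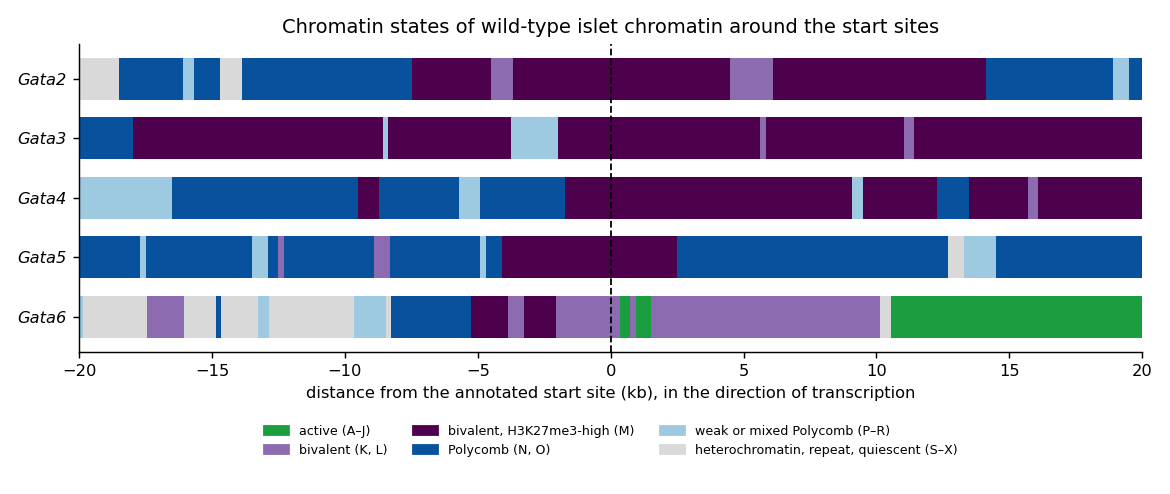
Chromatin states of wild-type islets along 20 kb on either side of the annotated start site (dashed line) of the 5 autosomal GATA genes, in the direction of transcription. Horizontal position is distance in kb and colour the state group. State M spans the starts of Gata2, Gata3, Gata4 and Gata5, whereas the start of Gata6 lies in state L with active states downstream of it.

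The bases before the start sites of Gata2, Gata3 and Gata5 were rich in CpG. The 250 bases before each start in RefSeq's table for GRCm38 are printed 5′ to 3′ with each CpG in capitals; 4 of the 6 members had an entry, and those of Gata1 and Gata3 start inside the gene models given above. The first start of Gata2 (chr6:88193641-88193890, + strand, state M) and a second, internal start, which is none of the Gencode starts above (chr6:88198414-88198663, + strand, state L), are shown with those of Gata3 (chr2:9878601-9878850, - strand, state M) and Gata5 (chr2:180334680-180334929, - strand, state M), and Gata1 (chrX:7967911-7968160, - strand) is the contrast.
Gata2, first start: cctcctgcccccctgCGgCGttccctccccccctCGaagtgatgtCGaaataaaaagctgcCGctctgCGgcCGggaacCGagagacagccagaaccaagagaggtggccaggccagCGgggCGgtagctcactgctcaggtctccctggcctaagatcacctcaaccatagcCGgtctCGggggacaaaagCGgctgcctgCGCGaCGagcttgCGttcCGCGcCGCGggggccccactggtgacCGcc
Gata2, second start: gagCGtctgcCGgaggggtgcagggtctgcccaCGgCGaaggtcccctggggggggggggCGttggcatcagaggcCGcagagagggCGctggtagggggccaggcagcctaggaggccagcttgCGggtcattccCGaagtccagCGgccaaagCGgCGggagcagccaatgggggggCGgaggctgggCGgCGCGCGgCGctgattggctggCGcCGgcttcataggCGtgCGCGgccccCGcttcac
Gata3: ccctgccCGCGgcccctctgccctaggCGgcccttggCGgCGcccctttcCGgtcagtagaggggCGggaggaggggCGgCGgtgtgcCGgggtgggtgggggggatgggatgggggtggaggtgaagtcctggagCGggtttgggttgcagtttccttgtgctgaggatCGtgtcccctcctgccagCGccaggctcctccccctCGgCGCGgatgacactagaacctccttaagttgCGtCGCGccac
Gata5: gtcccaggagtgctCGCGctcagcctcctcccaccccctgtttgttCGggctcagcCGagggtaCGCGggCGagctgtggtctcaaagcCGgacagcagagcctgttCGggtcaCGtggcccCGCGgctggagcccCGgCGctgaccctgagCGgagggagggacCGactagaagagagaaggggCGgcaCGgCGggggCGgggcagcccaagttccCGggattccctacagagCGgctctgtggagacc
Gata1: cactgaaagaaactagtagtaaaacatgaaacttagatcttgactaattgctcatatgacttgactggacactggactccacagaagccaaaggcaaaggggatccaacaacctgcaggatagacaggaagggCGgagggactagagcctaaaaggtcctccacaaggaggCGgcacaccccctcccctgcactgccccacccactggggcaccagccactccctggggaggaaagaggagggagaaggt

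Gata2 held 22 CpG before its first start and 24 before its second, Gata5 held 22 and Gata3 held 19. The median was 6 over all 32851 promoters of the table and 7 over those in state M, so these windows lay above both. It was 12 over promoters in state L and 20 over those in the active state A, of which the latter is nearer to these windows. Gata1 held 2. A GATA-binding word (AGATAA or AGATAG or TGATAA or TGATAG, on either strand) was present in 0 of the 5 windows and in 26.5% of all promoters, which says only that these letters are not in the windows.

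The question behind the WT and βEedKO libraries is which genes change when PRC2 is lost from β cells, and when. At 25 weeks, 3 of the 6 GATA genes were called higher in βEedKO islets and none lower (of 18685 genes, 6.6% were called and 4.58% were called higher). These were Gata2, Gata3 and Gata6, with Gata4 higher in both βEedKO libraries but not called, Gata5 read in 1 of them and Gata1 too low to be tested. At 8 weeks 0 of the 5 tested members were called by edgeR or DESeq2, and 0 had an unadjusted p under 0.05 (0.434% of genes called by edgeR). Of 1624 genes with state M at the start, 869 passed the filter and were tested, and 27.2% of those tested were called higher at 25 weeks. Of 3021 genes with state L there, 2430 were tested and 14.2% of those were called higher. A silent gene can pass the filter through the βEedKO libraries alone, so these shares hold for the genes tested and not for all genes of a state.

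**Figure D2:**
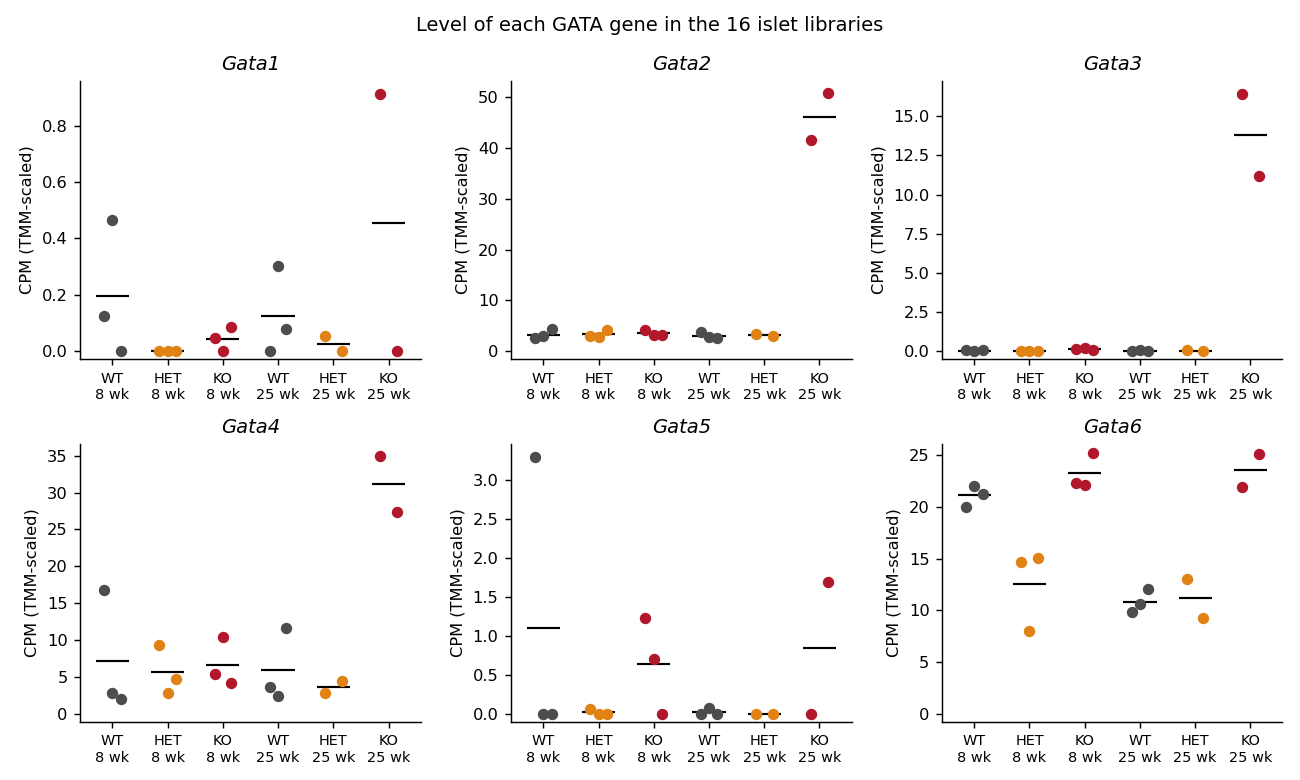
Level of the 6 GATA genes in all 16 libraries, in TMM-scaled CPM on a linear axis that differs between panels. Each point is 1 library, the line is the mean of its group, and groups are ordered by age. Gata2, Gata3 and Gata4 reach their highest levels in both 25-week βEedKO libraries, whereas Gata6 is low in the HET and 25-week WT libraries.

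Gata2, which maintains blood stem cells and specifies mast cells and inhibitory neurons, lay at 41.5 and 50.7 CPM in the 25-week βEedKO libraries. In the WT islets of that age it lay at 3.70, 2.86 and 2.71 CPM, in the HET islets at 3.43 and 2.92 CPM. The 8-week levels were 2.54, 3.02 and 4.29 CPM in WT, 2.92, 2.75 and 4.27 CPM in HET, and 4.12, 3.21 and 3.20 CPM in βEedKO islets. The 25-week βEedKO libraries thus stood apart from all 14 others, which overlapped between every pair of groups next to each other in level. The fitted log2 fold change of βEedKO against WT at 25 weeks was 3.86 (SE 0.31, adjusted p = 0.00017), and it was 3.98 without replicate 2 and 3.71 without replicate 3 of βEedKO. At 8 weeks it was 0.09 (SE 0.27, adjusted p = 0.98).

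Gata3, the factor of T helper 2 cells and innate lymphoid cells and of sympathetic neurons, was all but unread outside the 25-week βEedKO islets. It had 216 and 277 reads in those libraries (16.4 and 11.2 CPM), and 1 read over the 3 WT and 1 over the 2 HET libraries of that age. The ratio of scaled reads of βEedKO to WT was 400.2, with an exact 95% counting interval of 71.5 to 15839, and the fitted call had an adjusted p of 0.00057. Every other library held at most 4 reads, so Gata3 passed the filter on low counts only through the group where it is high. Its adjusted p is a description and no independent evidence. At 8 weeks Gata3 had 3, 4 and 1 reads in the βEedKO libraries (0.142, 0.200 and 0.0865 CPM) and 1, 0 and 1 in WT libraries, a ratio of 3.94 with an interval of 0.787 to 38.1. The 3 βEedKO libraries lay above the 3 WT libraries, but 6.53% of all genes did so at that age, and the gene was not called (adjusted p = 0.66).

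The gene model of Gata3 overlaps 3 others, 4930412O13Rik, 9230102O04Rik and the antisense Gm13256, and the use of strand in counting is not stated, so reads of overlapping genes cannot be told apart. Their own counts were small: 29, 30 and 4 reads over the 16 libraries. They were at 0.817, 0.631 and 0.0985 CPM on average in 25-week βEedKO islets and unread in WT islets of that age.

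Gata4, which builds heart and pancreas and persists in acinar cells, lay at 34.97 and 27.3 CPM in 25-week βEedKO libraries. It lay at 3.70, 2.48 and 11.7 CPM in WT and at 2.78 and 4.49 CPM in HET islets of 25 weeks. At 8 weeks it was at 16.9, 2.85 and 2.01 CPM in WT, at 9.33, 2.88 and 4.75 CPM in HET and at 5.45, 10.4 and 4.24 CPM in βEedKO islets. Both 25-week βEedKO libraries were above all others, but the WT libraries of 1 age differed among themselves by several fold. The log2 fold change at 25 weeks was 2.32 (SE 0.87, adjusted p = 0.16), which did not pass. It passed with WT and HET libraries pooled as control (2.63, adjusted p = 0.020) and without WT replicate 1 of 8 weeks, which enters the common estimate of the spread (2.31, adjusted p = 0.048). Groups did not overlap, with βEedKO higher, for 24.7% of genes at 25 weeks. At 8 weeks the log2 fold change was -0.07 (SE 0.78, adjusted p = 1.00), and the sign turned in several alternatives.

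The spread of Gata4 went with the acinar genes. Among the 11 WT and HET libraries, Pearson's r between log2 Gata4 CPM and the log2 sum of 11 acinar genes was 0.95, over libraries that share a scaling. The libraries highest in Gata4 among these 11, WT replicate 1 of 8 weeks (16.9 CPM), WT replicate 4 of 25 weeks (11.7 CPM) and HET replicate 1 of 8 weeks (9.33 CPM), were also the 3 highest in acinar sum, at 193397, 218044 and 159524 CPM. Replicate 2 of the 25-week βEedKO group was the highest of all 16 libraries in both, with Gata4 at 34.97 CPM. Replicate 3 departed from this order, with Gata4 at 27.3 CPM and the lowest acinar sum. Replicate 4 of the 8-week βEedKO group had Gata4 at 10.4 CPM with an acinar sum of 23726 CPM, below that of every WT and HET library.

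**Figure D3:**
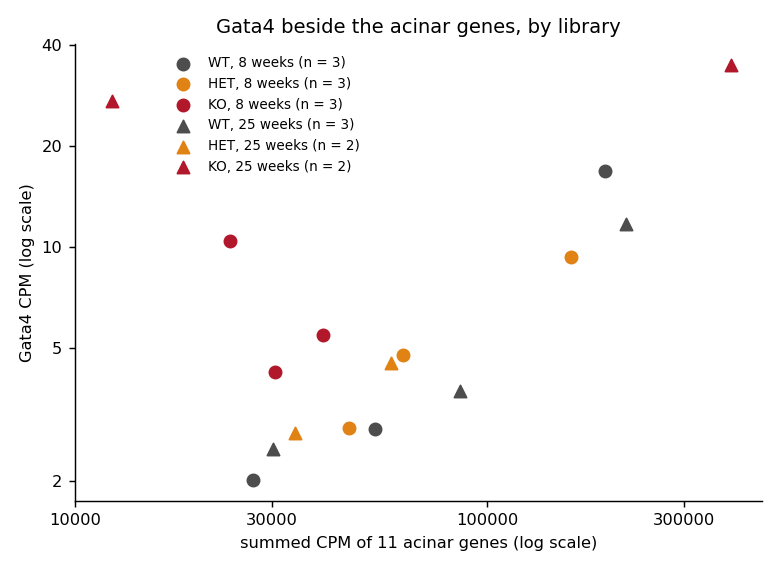
Gata4 CPM (vertical, log scale) against the summed CPM of 11 acinar genes (horizontal, log scale) in the 16 libraries, 1 point per library, with colour for genotype and shape for age. WT and HET libraries run along a common diagonal (r = 0.95 over 11), and the 25-week βEedKO libraries lie at the top at both ends of the acinar scale.

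Gata5, a factor of heart valves and gut epithelium, was read in single libraries. It lay at 3.30 CPM in WT replicate 1 of 8 weeks, at 1.23 and 0.702 CPM in βEedKO replicates 1 and 4 of 8 weeks and at 1.69 CPM in βEedKO replicate 3 of 25 weeks, and the remaining 12 libraries held at most 1 read each. At 25 weeks, βEedKO replicate 3 held 42 reads and replicate 2 held 0. The log2 fold change of 4.42 (SE 2.71, adjusted p = 0.41) thus rested on 1 library, and it was -2.26 without that library. The antisense gene Gata5os overlaps it and had 1 read in all.

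Gata6, a factor of endoderm and of pancreatic and endocrine differentiation, was the member with the smallest called difference. In βEedKO islets it lay at 22.0 and 25.1 CPM at 25 weeks and at 22.3, 22.2 and 25.3 CPM at 8 weeks. In WT islets it lay at 9.80, 10.6 and 12.1 CPM at 25 weeks and at 20.04, 22.0 and 21.3 CPM at 8 weeks. HET islets were at 13.1 and 9.27 CPM at 25 weeks and at 14.7, 7.98 and 15.1 CPM at 8 weeks. The level in βEedKO islets was thus close at both ages, and the 25-week difference from WT sat beside a lower WT level at that age. Duct genes, listed below, summed to 755 to 822 CPM in 8-week WT and 351 to 461 CPM in 8-week HET islets. In 8-week βEedKO islets the sum was 635 to 1143 CPM. At 25 weeks it was 366 to 457 CPM in WT, 369 to 376 CPM in HET and 855 to 886 CPM in βEedKO islets. Groups higher in Gata6 were thus also higher in duct RNA, and the part of duct cells in the Gata6 levels was not tested. The log2 fold change of Gata6 at 25 weeks was 1.06 (SE 0.20, adjusted p = 0.011). The call was lost without βEedKO replicate 2 (1.13, adjusted p = 0.052), without βEedKO replicate 3 (0.97, adjusted p = 0.10), without WT replicate 3 (1.04, adjusted p = 0.058) and with library size alone as scaling (1.35, adjusted p = 0.052). At 8 weeks it was 0.14 (SE 0.18, adjusted p = 0.94).

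Gata1, the erythroid and megakaryocyte factor, failed the filter on low counts. Its highest value was 0.912 CPM (12 reads) in βEedKO replicate 2 of 25 weeks, while replicate 3 had 0 reads, and no other library passed 0.465 CPM. The ratio of scaled reads of βEedKO to WT at 25 weeks was 1.95 with an interval of 0.639 to 7.06, so a difference was not detectable at this depth.

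Relative to each other the order of the levels differed between groups. Per kb of exon, the 6 genes summed to 3.83 ± 1.35 CPM per kb in WT (SD, n = 3) and to 24.1 ± 0.67 CPM per kb in βEedKO islets of 25 weeks (SD, n = 2). Gata6 made up 45.8% ± 10.5 of the family sum in 25-week WT, 58.4% ± 20.8 in 8-week WT and 58.4% ± 10.1 in 8-week βEedKO islets (SD, n = 3 each). In 25-week βEedKO islets it made up 15.1% ± 1.84, with Gata2 at 35.6% ± 6.02, Gata4 at 33.1% ± 4.84 and Gata3 at 14.4% ± 3.49 (SD, n = 2). Gata1 and Gata5 stayed at 0.763% and 1.10% there.

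**Figure D4:**
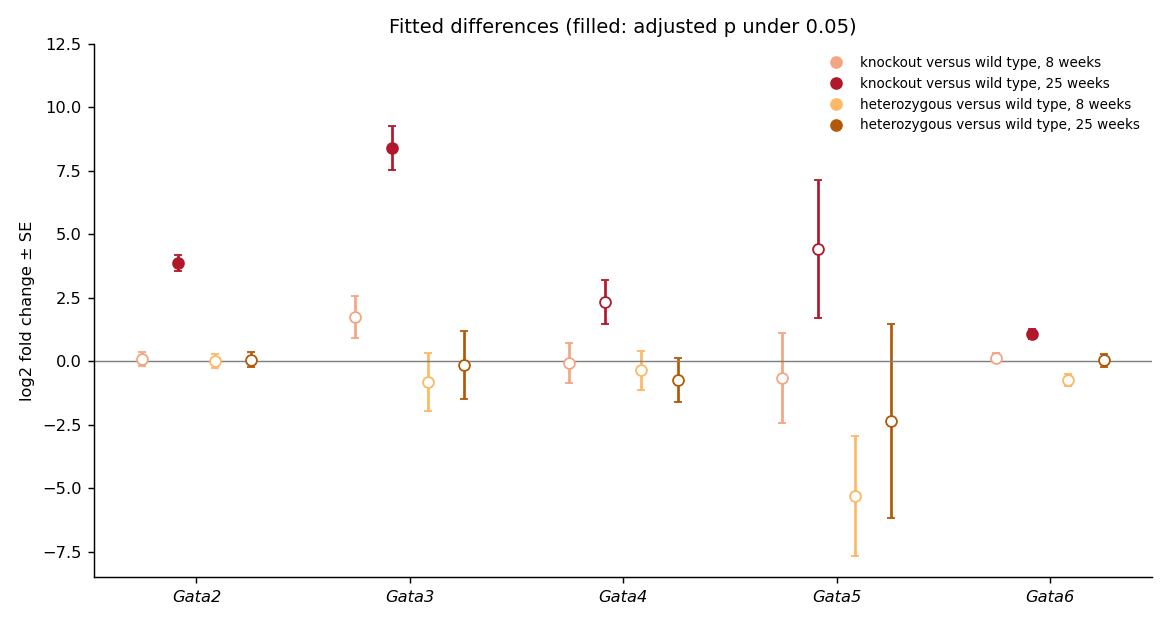
Fitted log2 fold change (vertical) with its standard error for the 5 GATA genes that passed the filter, in βEedKO (knockout) and HET against WT at both ages. Filled points had an adjusted p under 0.05. Gata2 (3.86), Gata3 and Gata6 (1.06) are filled in the 25-week βEedKO comparison, and no point is filled at 8 weeks or in the HET comparisons.

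Whether the effect of the knockout differed between the ages was tested as the 25-week difference minus the 8-week one. It was called for Gata2 at 3.77 on the log2 scale (SE 0.40, adjusted p = 0.0058; 0.198% of genes were called). With replicate numbers as a block, which the labels of WT and βEedKO share, the value was 3.65 and the call was lost (adjusted p = 0.17), as it was with library size alone (3.87, adjusted p = 0.050). Under that block, 2 of 18685 genes were called for this difference. The other members were not called: Gata3 had an adjusted p of 0.15, Gata6 of 0.29, Gata4 of 0.69 and Gata5 of 0.82. Within βEedKO islets, 25 against 8 weeks gave 3.66 for Gata2 (SE 0.30, adjusted p = 0.0010) and 6.42 for Gata3 (SE 0.71, adjusted p = 0.0033), and 1.5% of genes were called. Gata6 was at -0.03 there (SE 0.20, adjusted p = 0.96).

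Within WT islets, 25 against 8 weeks gave no called member by edgeR, and 0.0% of genes were called at all (1898 at an unadjusted p under 0.05, and 139 called by DESeq2). Gata6, whose groups did not overlap, was at -0.96 on the log2 scale (SE 0.18) and was the only member with an unadjusted p under 0.05 (adjusted p = 0.32). DESeq2 called it, at -0.92 (adjusted p = 0.0018). Of all genes, 8.95% lay lower in every 25-week than in every 8-week WT library.

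The HET libraries ask whether 1 lost copy of Eed is enough. No member was called against WT at 8 or at 25 weeks by edgeR or DESeq2, and edgeR called 0.0% of 18828 genes at either age. At an unadjusted p under 0.05 there were 2743 genes at 8 weeks and 210 at 25 weeks, and DESeq2 called 407 and 3. Without WT replicate 1 of 8 weeks, the WT library richest in acinar RNA at that age, edgeR called 601 genes at 8 weeks, 85 higher and 516 lower in HET, with still no member among them. At 8 weeks, Gata6 (log2 fold change -0.75, SE 0.23, adjusted p = 0.24) and Gata5 (-5.30, SE 2.36, adjusted p = 0.33) had an unadjusted p under 0.05, and at 25 weeks 0 members did. All 3 HET libraries of 8 weeks held less Gata6 than the WT libraries, as 9.09% of genes did. Gata2 in HET islets stayed at 0.01 (SE 0.26) and 0.06 (SE 0.30) from WT at 8 and 25 weeks on the log2 scale.

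Against HET islets, βEedKO islets of 25 weeks showed the same 3 members called higher, with 8.36% of genes called. Gata2 was at 3.86 (SE 0.35, adjusted p = 5.6e-05), Gata6 at 1.08 (SE 0.28, adjusted p = 0.034), and Gata3 had an adjusted p of 0.00050, while Gata4 was at 3.10 (SE 0.99, adjusted p = 0.073). These comparisons share the βEedKO libraries with those against WT. The Gata6 call was lost in 6 of 16 fits that each left out 1 library, among them those without either 25-week HET or either 25-week βEedKO library (0.84 to 1.34, highest adjusted p = 0.32). At 8 weeks Gata6 was called at 0.89 (SE 0.23, adjusted p = 0.045; 4.74% of genes called), a call lost in 13 of 16 fits that each left out 1 library, with 0.64 to 1.08 as the range. In level, Gata6 thus ran from 25-week WT (10.8 ± 1.14 CPM) over 25-week HET (11.2 ± 2.68) and 8-week HET (12.6 ± 3.99), which overlapped, to 8-week WT (21.1 ± 1.01), 8-week βEedKO (23.2 ± 1.75) and 25-week βEedKO islets (23.5 ± 2.22; SD, n = 3, or 2 for 25-week HET and βEedKO).

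None of the nearest protein-coding genes on either side of the members was called higher at 25 weeks. Rpn1 (oligosaccharyltransferase subunit), at 88.6 kb from Gata2, was at -0.03 on the log2 scale (adjusted p = 0.98) at 25 weeks, and Dnajb8, 15.2 kb away on the other side, had 10 reads in all. Taf3 (a TFIID subunit), at 24.5 kb from Gata3, was at 0.01 (adjusted p = 0.99) and Celf2, 2348 kb away, at 0.39 (adjusted p = 0.45). Next to Gata4, the DNA glycosylase Neil2 fell by 1.95 on the log2 scale (SE 0.51, adjusted p = 0.048), from 23.1 ± 6.48 CPM in WT (SD, n = 3) to 6.17 ± 1.27 CPM in βEedKO islets (SD, n = 2). Its start lies in state A, and the call was lost in 8 of 11 fits without 1 library (highest adjusted p = 0.27, without βEedKO replicate 3) and with library size alone (-1.79, adjusted p = 0.091). On the other side Blk was at 2.30 (SE 1.42, adjusted p = 0.41). Mib1 and Rbbp8 around Gata6, Slco4a1 and Rbbp8nl around Gata5, and Hdac6 and Glod5 around Gata1 were not called or not tested, nor was 1010001N08Rik, which overlaps Gata6 (1.05, SE 0.78, adjusted p = 0.50).

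GATA factors work with partners, and lists of these were counted beside the members. The FOG proteins bind the N-terminal finger of GATA factors. Zfpm1 (FOG1) rose from 6.32, 6.62 and 11.0 CPM in WT to 27.6 and 22.6 CPM in βEedKO islets of 25 weeks (log2 fold change 1.59, SE 0.37, adjusted p = 0.030), and the call was lost without βEedKO replicate 2 (1.42, adjusted p = 0.18). Zfpm2 was too low to be tested.

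In blood progenitors GATA factors form a complex with LMO2, LDB1 and TAL1. Of the 11 genes of that complex and its relatives, 2 were called at 25 weeks, both higher (4.58% of all genes tested were called higher). Their median log2 fold change was 1.24 over the 11, where that of all genes was 0.03. Tal1 rose from 2.18, 0.902 and 1.08 CPM in WT to 21.4 and 23.2 CPM in βEedKO islets (4.02, SE 0.55, adjusted p = 0.0025). Its relative Tal2 was at 11.2 and 3.51 CPM in βEedKO islets (5.02, SE 1.14, adjusted p = 0.028), lost without βEedKO replicate 2 (adjusted p = 0.18). At 8 weeks Tal1 was at 0.78 (adjusted p = 0.80). Lmo2, the bridge of the complex, and Ldb1, both named after their values were seen, were at 1.27 (adjusted p = 0.36) and -0.46 (adjusted p = 0.60).

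Other haematopoietic regulators showed no call: 0 of 7 tested among Spi1, Runx1, Fli1, Erg, Klf1, Gfi1b, Nfe2, Mecom and Hhex by edgeR, with 1 at an unadjusted p under 0.05 and 1 by DESeq2. The 2 highest in level, Hhex and Erg, were at 0.58 (adjusted p = 0.57) and 0.23 (adjusted p = 0.79). Of 9 further genes with a GATA-type zinc finger, such as the NuRD subunits, 0 were called by edgeR, 1 had an unadjusted p under 0.05 and 1 was called by DESeq2. Their median was -0.29, and Rere and Gatad2b, the highest in level, were at -0.74 (adjusted p = 0.28) and -0.29 (adjusted p = 0.68).

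Of 12 heart and mesoderm partners of Gata4, 7 were tested, 3 called higher and 1 lower at 25 weeks, with a median of 2.02. Of all genes tested, 4.58% were called higher and 6.6% in either direction. The 3 called higher passed the filter only through the 25-week βEedKO group, so their direction was set by it. Their calls and the median are descriptions. Nkx2-5, the cardiac homeobox factor that binds Gata4, had 0 reads in all WT libraries and 8.44 and 18.7 CPM in the 25-week βEedKO libraries, at least 156-fold above the floor of 3 reads over the WT group (adjusted p = 0.0035). Tbx5 was at 10.8 and 10.2 CPM, 107-fold above WT with a counting interval of 36.4 to 522 (adjusted p = 0.0042). Tbx20 was at 3.50 and 3.30 CPM, at least 34.6-fold above the floor (adjusted p = 0.042), a call lost under the replicate block (adjusted p = 0.13) and without βEedKO replicate 3 (adjusted p = 0.15). Isl1, which in the islet is a factor of all endocrine cells, fell by 1.58 on the log2 scale (SE 0.40, adjusted p = 0.042). The call was lost without βEedKO replicate 2 (-1.53, adjusted p = 0.23) and with library size alone (-1.32, adjusted p = 0.18). Among contractile and natriuretic products, Nppa, Nppb, Myh6 and Tnnt2 failed the filter on low counts. Myh6 had 93 reads in 25-week βEedKO and 3 in WT libraries, a ratio of 25.2 with an interval of 8.35 to 124. Nppa had 20 and 3 reads, Tnnt2 75 and 4, and Nppb 2 and 0. Myh7, named after its values were seen, was tested and lay lower at 25 weeks, without a call (-3.33, SE 1.30, adjusted p = 0.19).

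Of 11 endoderm partners, 1 was called higher and 1 lower (median 0.41), where 4.58% of all genes tested were called higher and 6.6% in either direction. The pioneer factor Foxa1 was at 10.4 and 30.4 CPM in 25-week βEedKO libraries against 0, 0.376 and 0.309 CPM in WT (6.12, SE 1.22, adjusted p = 0.015), a call lost without βEedKO replicate 3 (5.18, adjusted p = 0.090). Pdx1, which marks the pancreas and the β cell, fell by 1.99 (SE 0.34, adjusted p = 0.0074). The fold stayed close and the call was lost without βEedKO replicate 2 (-1.79, adjusted p = 0.085) and with library size alone (-1.68, adjusted p = 0.082).

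Genes of the GABA and serotonin neurons that Gata2 and Gata3 help to specify moved in both directions. Of 14 listed, 11 were tested, 4 called higher and 1 lower at 25 weeks (median 1.09), and Gad2 alone was called at 8 weeks. Of all genes tested at 25 weeks, 4.58% were called higher and 6.6% in either direction. Slc32a1 passed the filter only through the 25-week βEedKO group, so its direction was set by it. Gad1 and Gad2 encode the enzymes that make GABA from glutamate. Gad1 fell from 166, 219 and 199.9 CPM in WT to 14.9 and 23.5 CPM in βEedKO islets (-3.40, SE 0.28, adjusted p = 0.00017). Gad2 rose from 0.218, 0.226 and 0.0773 CPM to 13.3 and 18.6 CPM (6.48, SE 1.01, adjusted p = 0.0045). At 8 weeks Gad2 lay at 0.711, 9.32 and 7.26 CPM in βEedKO islets and at most at 0.159 CPM in WT (5.81, SE 0.95, adjusted p = 0.031). That call was lost with the replicate block (5.11, adjusted p = 0.19) and in 10 of 11 fits that left out 1 library (highest adjusted p = 0.19, without WT replicate 3 of 8 weeks). Under the block, 0 of 18685 genes were called at 8 weeks. Slc32a1, the vesicular GABA transporter, was unread in WT and HET islets and at 23.9 and 20.1 CPM in 25-week βEedKO libraries, at least 220.0-fold above the floor (adjusted p = 0.00085). Tph1, which starts serotonin synthesis, had 1 read in 25-week WT islets and 6.84 and 24.9 CPM in βEedKO islets, a ratio of 575 with an interval of 103 to 22732 (adjusted p = 0.0047, or 0.070 with the replicate block). The fifth was the serotonergic factor Fev, named after its values were seen: 19.3 to 28.4 CPM in βEedKO and 3.13 ± 2.03 CPM in WT islets (2.94, SE 0.69, adjusted p = 0.032), lost without βEedKO replicate 2 (adjusted p = 0.16).

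**Figure D5:**
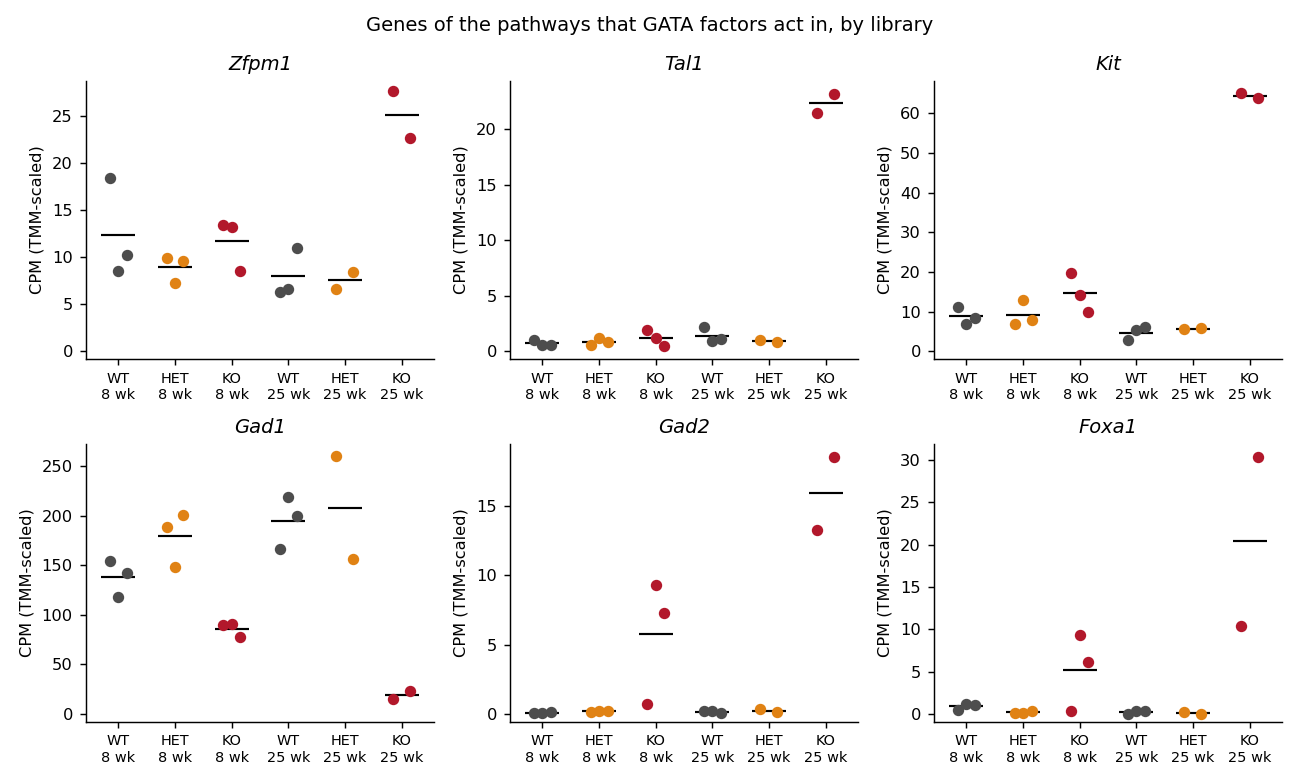
Level of 6 genes that act with GATA factors or in cells that need them, in TMM-scaled CPM on linear axes that differ between panels. Each point is 1 library and the line is its group's mean. Zfpm1, Tal1 and Kit are highest in both 25-week βEedKO libraries, Gad2 lies above WT in all 3 and Foxa1 in 2 of 3 βEedKO libraries of 8 weeks, and Gad1 is lowest in the 25-week βEedKO libraries.

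The study itself transfected Gata2 into a β cell line together with Barx1, Hoxb7, Pitx1, Twist1 and Zic1. All 5 were called higher in βEedKO islets of 25 weeks (median 8.02), which is no independent evidence, since the study chose them on these samples. Zic1 had a ratio of scaled reads of 916 with an interval of 164 to 36199, Pitx1 of 851 with 152 to 33634, Barx1 of 308 with 85.1 to 2552 and Hoxb7 of 166.0 with 45.7 to 1375. At 8 weeks, Zic1 (86.7, interval 15.2 to 3465, adjusted p = 0.0063) and Twist1 (78.9, interval 26.7 to 385, adjusted p = 0.031) were called. Gata2 was at 0.09 on the log2 scale (SE 0.27) and was not called. Both calls were lost with the replicate block (adjusted p = 0.19 and 0.32) and with pooled controls (adjusted p = 0.20 and 0.079). Under the block, 0 of 18685 genes were called at 8 weeks, so its loss of a call is not particular to these genes.

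Other cells of the islet or of blood also express GATA genes, and their markers were read beside the members. Endothelial cells carry Gata2: 0 of 10 endothelial genes were called at 25 weeks by edgeR, 3 had an unadjusted p under 0.05 and 2 were called by DESeq2. Their summed level was 412 to 525 CPM in βEedKO and 405 to 429 CPM in WT islets, with 0 genes unread, and Plvap and Kdr, the highest of them, were at 0.21 (adjusted p = 0.69) and -0.65 (adjusted p = 0.36). The genes of this list did not move alike: Vwf, named after its values were seen, lay at 19.3 to 30.1 CPM in βEedKO and at 4.18 to 5.45 CPM in WT islets (2.28, SE 0.65, adjusted p = 0.068). Pecam1, named likewise, was at 0.71 (SE 0.21, adjusted p = 0.068), and the part of endothelial cells in the Gata2 result was not tested. Mast cells carry Gata2 and Gata1. Of 9 mast cell genes, 3 were tested and 1 was called higher at 25 weeks, with a median log2 fold change of 0.46 (4.58% of all genes tested were called higher). The called gene was Kit, at 65.0 and 63.8 CPM against 2.83, 5.26 and 6.03 CPM in WT (3.68, SE 0.36, adjusted p = 0.00044). The sum of the list, Kit included, was 71.2 to 74.1 CPM in 25-week βEedKO and 9.80 to 12.53 CPM in WT islets. Kit made up most of the βEedKO sum, so the rise of the sum was largely that of Kit. The proteases Cpa3, Mcpt4, Cma1 and Tpsb2 averaged at most 0.590 CPM in 25-week βEedKO islets, and Tpsab1 was unread in all 16 libraries. Not every gene of the list is named here, and the part of mast cells in the Gata2 result was not tested.

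T cells and innate lymphoid cells carry Gata3. Of 13 genes of these cells, 0 of 10 tested were called by edgeR, 4 had an unadjusted p under 0.05 and 2 were called by DESeq2, with a median log2 fold change of 2.36. Their sum was 44.4 to 61.7 CPM in 25-week βEedKO islets and 5.80 to 21.4 CPM in WT. Like Gata3 it was higher in βEedKO islets at that age, and its part in the Gata3 result was not tested. Thy1, which is not limited to T cells, was the highest at 28.8 CPM on average in βEedKO islets (2.45, adjusted p = 0.076), and Lck was next at 7.58 CPM (2.05, adjusted p = 0.14). The T cell receptor chains Cd3d, Cd3e and Cd3g averaged 1.03, 1.13 and 2.43 CPM there, and Gata3 13.8 ± 3.72 CPM (SD, n = 2). CPM are not scaled to gene length, so levels of different genes cannot be compared as amounts. At 8 weeks the sum was 15.7 to 32.0 CPM in βEedKO and 5.98 to 15.9 CPM in WT islets. Gata3 was at most at 0.200 CPM in those βEedKO libraries.

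Erythroid and megakaryocyte genes, which go with Gata1, gave 0 calls by edgeR or DESeq2 among 11 tested (2 at an unadjusted p under 0.05). Hbb-bs lay at 92.3 CPM in βEedKO replicate 2, which held the 12 reads of Gata1, and at 105 CPM in WT replicate 2 of 25 weeks, which held 0 at the lowest depth. The highest by level, Hbb-bs and Hba-a1, were at 0.08 (adjusted p = 0.98) and -0.02 (adjusted p = 0.99). Acinar genes gave 0 calls among 11 by edgeR or DESeq2, and 0 unadjusted (Ctrb1 at 1.00, adjusted p = 0.71, and Pnlip at 0.81, adjusted p = 0.78).

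Other lists moved too at 25 weeks, when 4.58% of all genes tested were called higher and 6.6% in either direction. Of 8 duct genes, 3 were called higher (Krt19 at 3.62, Spp1 at 2.996 and Sox9 at 2.98), and their sum was 855 to 886 CPM in βEedKO and 366 to 457 CPM in WT islets. Of 10 mesenchymal genes, 3 were called higher (Pdgfra at 2.79, Col1a1 at 1.84 and Col1a2 at 1.51), with sums of 412 to 504 and 182 to 288 CPM. Of 8 macrophage genes, Ptprc was called (1.90). All of these calls but that of Spp1 were lost without 1 of the βEedKO replicates of 25 weeks (adjusted p = 0.11 to 0.26). Of the 7 islet endocrine genes, Ins1 (-3.85) and Iapp (-3.17) were called lower, calls that were lost without βEedKO replicate 2 (adjusted p = 0.082 and 0.13). The calls of Krt19, Pdgfra, Ptprc, Ins1 and Iapp were also lost with the replicate block (adjusted p = 0.091 to 0.13). The part of these cell types in the GATA results was not tested. Of 4 PRC2 subunits 0 were called by edgeR or DESeq2 (1 at an unadjusted p under 0.05), with Ezh1 at -0.62 (adjusted p = 0.30) and Suz12 at -0.31 (adjusted p = 0.55).

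The genes whose levels ran most like each member over the 16 libraries were taken from 15578 protein-coding genes by Pearson's r of log2 CPM, as a description of libraries that share genotype and scaling. For Gata2 they were Tfap2b (0.988), Hoxc11 (0.985) and Sp9 (0.985), and for Gata3 Pax3 (0.991) and Otp (0.991). All of these are developmental transcription factors with state M at the start. For Gata4 they were Bmp7 (0.953), Iyd (0.940) and Slc30a2 (0.938), for Gata5 Adgrg7 (0.972), Ces1g (0.970) and Capn13 (0.966), and for Gata6 Irx1 (0.928), Efhd2 (0.899) and Add2 (0.893). Among the members, Gata2 and Gata3 were nearest to each other (0.967), followed by Gata3 and Gata4 (0.725) and Gata2 and Gata4 (0.661). Many genes outside the family ran more closely: Gata3 ranked 38 for Gata2, and Gata2 ranked 55 for Gata3. Gata4 ranked 1037 for Gata2 and 916 for Gata3. Gata6 reached at most 0.469 with any other member.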

How the data were processed

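The table of the authors holds unnormalised gene counts, 1 column a library, which rest on alignment with TopHat2 2.0.13 on GRCm38 and featureCounts (Subread 1.5.0-p1) on Gencode M9 models from TruSeq v2 libraries; use of strand is not stated. The authors also deposited a segmentation made with EpicSeg, as letters in bins of 200 bp. Names, positions and exon lengths came from a later Gencode release of that build, in which 47310 of the 47937 identifiers were found. A list of cell barcodes was not used here.

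Group differences were fitted with edgeR 4.0.16 in R 4.3.3 (TMM, filterByExpr by group, quasi-likelihood test, Benjamini-Hochberg adjustment), leaving 18685 genes in a fit of 11 WT and βEedKO libraries in 4 groups, and 18828 in a fit of all 16 for the HET comparisons. The common biological coefficient of variation was 0.456. The filter also passes a gene that is high in a single group. Gata3, Nkx2-5, Tbx5, Tbx20 and Slc32a1 entered the fit of 11 libraries only through the 25-week βEedKO group. Their p-values are descriptions. DESeq2 1.42.0 was an alternative. The standard error is the absolute log2 fold change over the root of the F statistic. Intervals are exact (Clopper-Pearson, 95%), and intervals and the floor of 3 reads cover counting error only. Labels do not say what replicate numbers mark, and p-values measure the spread between these libraries. WT and βEedKO libraries with the same number deviated together from their group means (correlation 0.457 and 0.163 for replicates 1 and 4 at 8 weeks, 0.176 and 0.255 for replicates 2 and 3 at 25 weeks, each over 18828 genes), so the blocked value is given where it changes a call. Libraries with different numbers could correlate as much: βEedKO replicate 5 of 8 weeks, which no WT library shares a number with, reached 0.450 with WT replicate 3 and 0.329 with WT replicate 4, so the pairing is a hint from the data. The 2 correlations at 25 weeks share 1 difference, since that βEedKO group holds 2 libraries. No libraries of a group were duplicates (chi-square per degree of freedom 31.0 to 592). The fit was tested on simulated data.

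The family, lists and tests were chosen with earlier results of these data known. All 6 members were named. Of each list, those called at either age were named (at most 4, by size), or else the 2 highest in mean CPM. The nearest protein-coding gene with a count on each side, overlapping genes and the 3 likest genes of each member over 16 libraries were also named, except 1 gene that is not reported here. Alternatives for genes other than the members were added after the data were seen. Promoter sequences came from RefSeq.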

Additional observations from a re-analysis of the deposited data

Results flagged for a closer look

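The effect of the knockout on Gata2 differed between the ages by the test of the difference itself: it was 3.77 higher on the log2 scale at 25 than at 8 weeks (SE 0.40, edgeR's quasi-likelihood test, adjusted p = 0.0058). Both 25-week βEedKO libraries (41.5 and 50.7 CPM) lay above all 14 others, and the 3 βEedKO libraries of 8 weeks (3.20 to 4.12 CPM) lay among the WT libraries of that age (2.54 to 4.29 CPM). The call held in all 11 fits that left out 1 library (3.51 to 3.95), but not with the replicate block (3.65, adjusted p = 0.17) or with library size alone (3.87, adjusted p = 0.050). Under the block, 2 of 18685 genes were called for this difference. No group held the 4 libraries that a test for a single outlying library needs.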

How the results depend on the processing

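Gata2 and Gata3 were called in βEedKO against WT at 25 weeks under every alternative in scaling, filter, test, control and block and in every fit that left out 1 library. The number of members called there was 3, with 2 for library size alone (without Gata6), 4 with WT and HET pooled as control (with Gata4) and 2 to 4 over fits without 1 library. For the difference between the ages the count was 1, with 0 for library size alone, 2 for DESeq2, 2 with WT and HET pooled as control and 0 with the replicate block. Of all 18685 genes, the block called 2 there. For 25 against 8 weeks in WT it was 0, and 1 with DESeq2. For βEedKO against HET at 25 weeks it was 3, and 2 to 4 without 1 library, and at 8 weeks it was 1, with 0 for library size alone, 0 for no filter, 0 with the replicate block and 0 to 1 without 1 library. Same-numbered HET libraries did not deviate with the others throughout, so their block marks only a number. Apart from the calls given in the report, the block changed no call of a member against WT. No paired analysis was possible between the ages of 1 genotype, because the numbers are nested in age.

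Uncalled values changed sign: Gata4 at 8 weeks was 0.20 with library size alone, 0.066 with pooled controls and 0.31 with the replicate block, and Gata5 at 8 weeks was 0.26 with pooled controls and 0.66 with the block. Without 1 library, Gata2 at 8 weeks ran from -0.081 to 0.34, Gata4 at 8 weeks from -0.56 to 1.45, Gata5 at 8 weeks from -1.48 to 6.40 and at 25 weeks from -2.26 to 6.78, and its difference between the ages from -1.985 to 7.48. The cause was not tested. State M at every annotated transcript start held for 3 members in place of 4. Counting states M to O alone as Polycomb gave stretches of 8.2 kb for Gata2 and 7.6 kb for Gata3, and states K to R gave 71.2 kb for Gata2, 53.8 kb for Gata3, 106.6 kb for Gata4 and 134.2 kb for Gata5.

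With 2 libraries in the 25-week βEedKO group, 1 of them rich in acinar RNA, the Gata5 difference rests on 1 library and the Gata6 call, though not its fold, on both, and levels of a few reads, as for Gata1, Gata5 and Gata3 outside that group, allow only wide intervals.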
